A study of Homo sapiens with 8 samples.

Results

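The chaperonin TRiC, also called CCT, is built from the products of 8 genes: TCP1, CCT2, CCT3, CCT4, CCT5, CCT6A, CCT7 and CCT8. Their transcripts were taken by gene symbol from the deposited expression table, in which all 8 were found among 34415 genes. The rule that picks them reads only gene symbols, although the complex was taken up with earlier results of these data known. RNA had been sequenced from TeloHAEC, a line of human aortic endothelial cells made immortal with telomerase, of wild-type genotype in every sample. The series has 4 control libraries and 4 libraries from cells given estradiol, the main oestrogen, and by the sample titles and the series' design text the medium of all 8 held palmitic acid, a saturated fatty acid. The treatment field of the labels reads "Control" for the controls and "PA-supplied" for the estradiol samples, so it does not name estradiol, and the grouping rests on the titles. The sources used here give no dose or exposure time. All libraries come from a single cell line, and nothing in the labels tells if the replicates were grown as separate cultures. The p-values therefore reflect the variation among these particular libraries, part or all of which may be technical.

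TRiC is a barrel of 2 stacked rings in the cytosol, and each ring holds 1 copy of every subunit. Newly made actin, tubulin and propeller-shaped proteins such as G protein beta subunits enter the chamber, which closes when the subunits bind and split ATP, and they fold inside it. Around the ring the subunits follow the order TCP1, CCT3, CCT6A, CCT8, CCT7, CCT5, CCT2, CCT4. The side made of CCT5, CCT2, CCT4 and TCP1 binds ATP more strongly than the side made of CCT3, CCT6A, CCT8 and CCT7. Because a finished ring needs equal numbers of all subunit proteins, the question asked of these data was whether the transcripts of the subunits were present at matched levels, and whether they differed between control and estradiol cells.

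The subunits share an ancestor, and the family is recognised by a short conserved stretch in the ATP-binding site, glycine, aspartate, glycine and threonine. Its codons are shown for every subunit because they display both what the genes share and how far their base composition differs, which returns with the library results. The coding letters were read 5′ to 3′ from GENCODE v29 transcripts on GRCh38, 63 bases each, and the capitals mark the motif GGNGANGGNAC, searched on the sense strand only. The stretches lie in coding exons at chr6:159785980-159787787 (minus strand, TCP1, exons 3 and 4), chr12:69587935-69587997 (plus strand, CCT2, exon 5), chr1:156325082-156333601 (minus strand, CCT3, exons 5 and 6), chr2:61880320-61880382 (minus strand, CCT4, exon 4), chr5:10254790-10255968 (plus strand, CCT5, exons 3 and 4), chr7:56054408-56054470 (plus strand, CCT6A, exon 3), chr2:73240523-73243045 (plus strand, CCT7, exons 3 and 4) and chr21:29067607-29067669 (minus strand, CCT8, exon 4). Where 2 exons are named, the stretch crosses a splice junction and its genomic span includes an intron.
TCP1: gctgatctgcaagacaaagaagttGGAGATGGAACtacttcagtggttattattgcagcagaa
CCT2: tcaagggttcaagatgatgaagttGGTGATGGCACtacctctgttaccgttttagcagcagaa
CCT4: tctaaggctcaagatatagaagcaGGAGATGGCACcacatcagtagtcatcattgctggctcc
CCT5: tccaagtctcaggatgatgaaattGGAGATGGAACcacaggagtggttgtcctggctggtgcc
CCT3: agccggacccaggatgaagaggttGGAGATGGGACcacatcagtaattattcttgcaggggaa
CCT6A: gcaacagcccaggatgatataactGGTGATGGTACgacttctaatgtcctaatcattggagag
CCT7: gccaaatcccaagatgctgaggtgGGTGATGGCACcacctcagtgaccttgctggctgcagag
CCT8: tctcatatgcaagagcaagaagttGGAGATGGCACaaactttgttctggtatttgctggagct

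The motif occurred once, in the reading frame, in each of the 8 subunit transcripts. Of 18804 genes with a protein-coding reference transcript, 1475 (7.84%) held these letters somewhere in their longest one, and 0.119% of 63-base windows of those transcripts held them, so the letters alone do not mark the family. The GC content of the printed stretch ran from 41.3% in TCP1 to 58.7% in CCT7. Over whole transcripts CCT3 (51.2%) and CCT7 (51.8%) stood above the other 6 subunits, which lay between 43.1% (CCT8) and 44.7% (CCT4). At the last position of each codon, where a base can often change without changing the protein, GC content was 56.7% in CCT3, 57.8% in CCT7 and 50.5% in CCT5, against 31.8% in CCT8 and 33.3% in CCT2. CCT5 thus combines a transcript of 44.6% GC with a last codon position nearer to those of CCT3 and CCT7, and its whole coding sequence lies between, at 47.8%.

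Whole reads could be recovered from the deposited values, and the libraries held between 33421051 and 39899258 reads. Control replicate 3 and estradiol replicate 4 stood apart from the other 6 libraries. A chi-square of read counts per degree of freedom was between 81 and 127 for each of these 2 libraries against each of the 6, between 4.76 and 20.9 among the 6, and 9.35 between the 2. All 10 endothelial markers checked, among them PECAM1, CDH5 and KDR, were at 1 FPKM (fragments per kilobase of transcript, scaled to each library's depth) or more, with a summed level of 528.6 to 726 in control and 528 to 682 in estradiol libraries. Of the 6 leukocyte and 6 fibroblast markers 0 reached 1 FPKM, with CD3E and LUM listed at 0. In the epithelial list KRT8 and KRT18 reached 1 FPKM (2 of 6, summed level 41.9 to 64.9 in control and 43.8 to 59.7 in estradiol libraries), and in the smooth muscle list ACTA2 and SMTN did (2 of 6, 18.8 to 28.6 and 19.2 to 27.4), with DES listed at 0. The subunits' results, and the counts and medians of the other gene lists, are given with and without these 2 libraries.

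All 8 subunits were strongly expressed, with mean levels from 63.9 FPKM for CCT5 to 158 FPKM for TCP1. These levels exceeded those of 91.9% (CCT5) to 97.1% (TCP1) of the 10720 genes with a mean of at least 1 FPKM, the set used for testing. Each subunit was covered by 5104 to 17527 reads in a library, so that counting error alone was at most 1.4% of a value. The levels were not equal across the complex: TCP1 was the highest and CCT5 the lowest subunit in each of the 8 libraries. The ratio of the highest to the lowest subunit was 2.48 from the means, and 2.48 ± 0.36 (SD, n = 8) within single libraries. In the 6 libraries without the pair it ranged from 2.21 to 2.38, and it was 2.93 in control replicate 3 and 3.17 in estradiol replicate 4.

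On the side of the ring that binds ATP more strongly, TCP1, the alpha subunit and the first of the family to be described, was at 141, 147, 181 and 145 FPKM in control replicates 1 to 4 and at 149, 154, 157 and 192 FPKM in estradiol replicates 1 to 4. Its highest value in each group came from a library that stood apart, and the groups overlapped. CCT4, the delta subunit, was at 109, 116.5, 129.9 and 121 FPKM in control and 116, 113, 121 and 138 FPKM with estradiol, again with the top value of each group in the same 2 libraries. CCT2, the beta subunit, which also acts as a receptor that brings protein aggregates to autophagosomes, was at 69.3, 74.8, 77.2 and 75.9 FPKM in control and 72.9, 74.95, 78.3 and 82.5 FPKM with estradiol. For CCT2 the lowest value was in control replicate 1, and control replicate 3 was below estradiol replicate 3. CCT5, the epsilon subunit, in which inherited mutations cause a sensory neuropathy, was at 63.5, 62.8, 61.9 and 64.8 FPKM in control and 67.0, 64.6, 66.3 and 60.5 FPKM with estradiol. CCT5 had the smallest spread of the 8 subunits, a coefficient of variation of 3.43% over 8 libraries, and its lowest values were in the 2 libraries in which TCP1 and CCT4 were highest.

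On the side that binds ATP weakly, CCT3, the gamma subunit, was at 113, 115, 88.75 and 118.5 FPKM in control replicates 1 to 4 and at 115, 114, 115 and 94.2 FPKM in estradiol replicates 1 to 4. The 6 high values lay between 113 and 118.5 FPKM, and the 2 low values came from the libraries that stood apart. CCT7, the eta subunit, showed the same layout, with 123, 121, 99.4 and 125 FPKM in control and 127.5, 133, 124 and 98.3 FPKM with estradiol. CCT6A, the zeta subunit, whose close relative CCT6B is made mainly in testis, was at 85.9, 87.1, 109.5 and 85.5 FPKM in control and 91.2, 91.1, 92.2 and 110.2 FPKM with estradiol, with the high value of each group in those libraries. CCT8, the theta subunit, whose level is known to promote assembly of the complex in pluripotent stem cells, was at 107, 119, 154 and 113 FPKM in control and 115, 111, 121 and 168 FPKM with estradiol. CCT8 had the largest spread of the 8 subunits, a coefficient of variation of 17.8% over 8 libraries and of 4.57% over the 6. Without the 2 libraries the coefficient of variation was at most 4.57% for any subunit and 1.68% for CCT3.

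**Figure D1:**
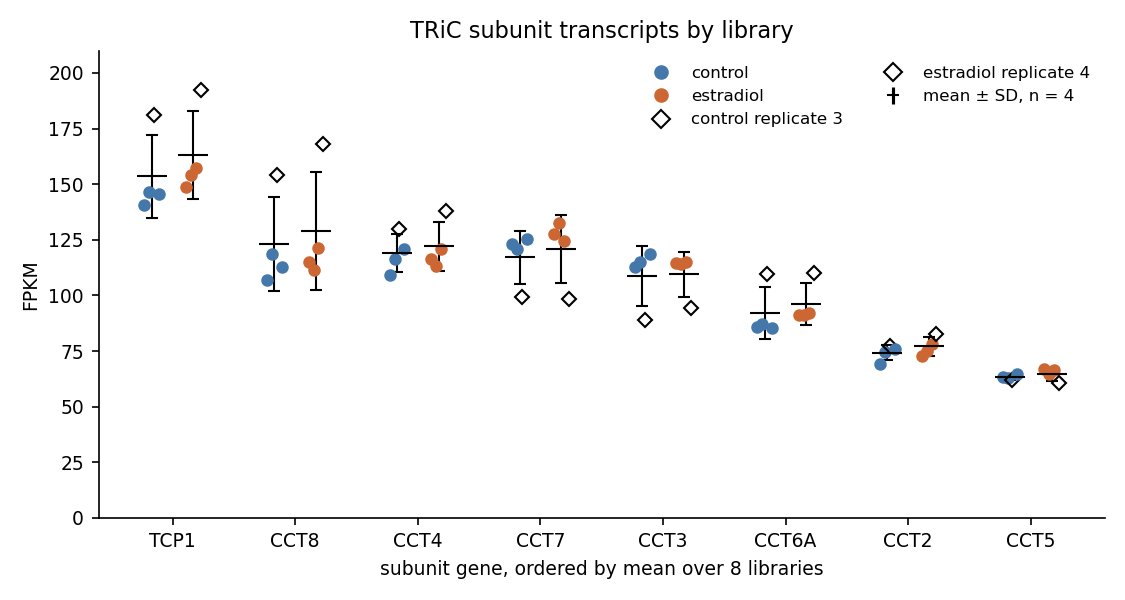
FPKM of each subunit in each library, with filled points for 6 libraries, open diamonds for control replicate 3 and estradiol replicate 4, and bars for the group mean and SD (n = 4). The diamonds sit above the filled points for TCP1, CCT8, CCT4 and CCT6A and below them for CCT7, CCT3 and CCT5, and control and estradiol points of each subunit share most of their range.

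By mean level the order was TCP1 (158 ± 18.5 FPKM, SD, n = 8), CCT8 (126 ± 22.4), CCT4 (121 ± 9.26), CCT7 (119 ± 12.8), CCT3 (109 ± 11.1), CCT6A (94.1 ± 10.1), CCT2 (75.7 ± 3.89) and CCT5 (63.9 ± 2.19). Neighbours in this order were compared within libraries by their log2 ratio, as a description. TCP1 exceeded CCT8 by 0.34 ± 0.09 on the log2 scale (SD, n = 8), in 8 of 8 libraries, and CCT6A exceeded CCT2 by 0.31 ± 0.11 and CCT2 exceeded CCT5 by 0.24 ± 0.10, each in 8 of 8. CCT7 exceeded CCT3 by 0.12 ± 0.05, also in 8 of 8. The middle of the order was not settled: CCT8 and CCT4 differed by 0.049 ± 0.14 and CCT4 and CCT7 by 0.024 ± 0.26, both less than the spread between libraries. Without the 2 libraries that stood apart, CCT7 was above CCT4 in 6 of 6. CCT3 exceeded CCT6A by 0.21 ± 0.30, in 6 of 8 libraries, with the reverse order in control replicate 3 and estradiol replicate 4 and a difference of 0.37 ± 0.06 in the 6 others.

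The gene length that enters FPKM bears on this order. Lengths recovered from the deposited values ran from 1977 bases (CCT3) to 2391 bases (CCT4) for 6 subunits, with 2584 bases for CCT6A and 3798 bases for CCT5, whereas the coding lengths were nearly equal, from 1593 (CCT6A) to 1668 bases (TCP1). With the coding length in place of the deposited length, CCT5 moved from the lowest place to the fifth, at 149.6 ± 5.13 reads per kilobase, scaled to depth (SD, n = 8), and CCT2 became the lowest at 96.1 ± 4.94. TCP1 stayed the highest at 223 ± 26.1. With the length of the reference transcript, TCP1 at 149 ± 17.4 and CCT5 at 66.1 ± 2.27 kept the ends of the order. The highest and lowest means then differed 2.26-fold with the reference transcript length and 2.32-fold with the coding length, while the subunit at the lower end differed with the length used.

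**Figure D2:**
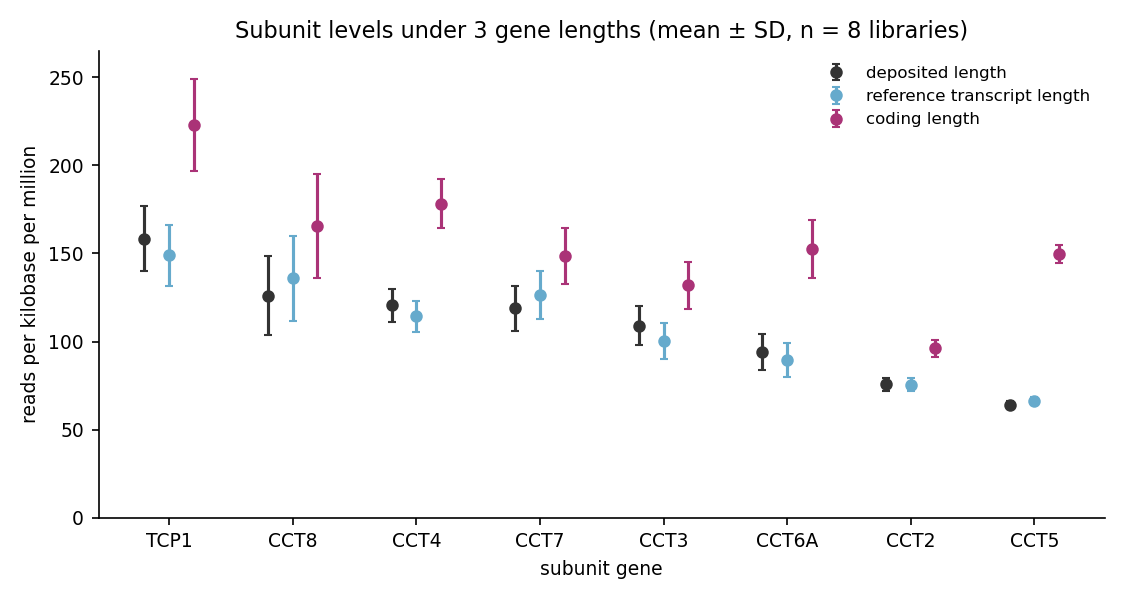
Mean level of each subunit in reads per kilobase scaled to depth, with SD over 8 libraries, computed with the deposited gene length, the reference transcript length and the coding length. TCP1 is highest under all 3 lengths, and CCT5 moves from 63.9 with the deposited length to 149.6 with the coding length.

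The spread among subunits can be set beside that of other complexes of fixed composition, as a description with no test. The SD of log2 FPKM among the 8 TRiC subunits was 0.44 ± 0.06 (SD over 8 libraries), and 0.40 to 0.42 in the 6 libraries. Among the 6 genes of prefoldin, the complex that hands unfolded actin and tubulin to TRiC, it was 1.26 ± 0.14 (1.26 to 1.45 in the 6 libraries), with means from 16.4 FPKM (PFDN4) to 139.6 FPKM (PFDN5). The 14 genes of the 20S proteasome core, the chamber in which proteins are degraded, gave 1.04 ± 0.047 (1.03 to 1.10 in the 6 libraries), with means from 31.0 FPKM (PSMB2) to 271 FPKM (PSMA7). In FPKM with the deposited lengths, TRiC transcripts thus spanned 2.48-fold, prefoldin 8.49-fold and the proteasome core 8.74-fold from lowest to highest mean. Within the 6 libraries the span of prefoldin was 9.38-fold or more and that of the proteasome core 8.23-fold to 9.78-fold. In control replicate 3 and estradiol replicate 4 prefoldin spanned 6.497-fold and 6.619-fold, with PFDN6 in place of PFDN4 as the lowest gene. The 3 sets differ in number of genes and in transcript length, and shorter transcripts are counted with less depth. The gene length that enters FPKM also bears on these spans, and other lengths were tried only for TRiC. In reads, PSMB2 had 4724 to 5812 in a library and PSMA7 8404 to 11064, and PFDN4 had 689 to 1585 and PFDN5 2625 to 3674. How much of the difference between the complexes comes from length was not tested.

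As a share of the summed FPKM of the 8 subunits, an even pool would give every subunit the same part. In the 6 libraries, TCP1 made up 17.1% to 18.0% of the pool, CCT7 14.2% to 15.5%, CCT3 13.1% to 13.9%, CCT4 13.2% to 14.2% and CCT8 13.0% to 14.1%. CCT6A followed with 10.1% to 10.7%, CCT2 with 8.54% to 8.94% and CCT5 with 7.45% to 7.85%. No subunit's share thus moved by much more than 1 percentage point among these libraries, across both groups. The mean share of TCP1 was 18.0% ± 1.40 (SD, n = 4) in control and 18.4% ± 1.31 in estradiol libraries, and the share of CCT5 was 7.44% ± 0.42 and 7.35% ± 0.64. In control replicate 3 and estradiol replicate 4 the makeup differed, with a mean share of 17.45% for CCT8 and 20.2% for TCP1 against 10.7% for CCT7 and 9.91% for CCT3.

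**Figure D3:**
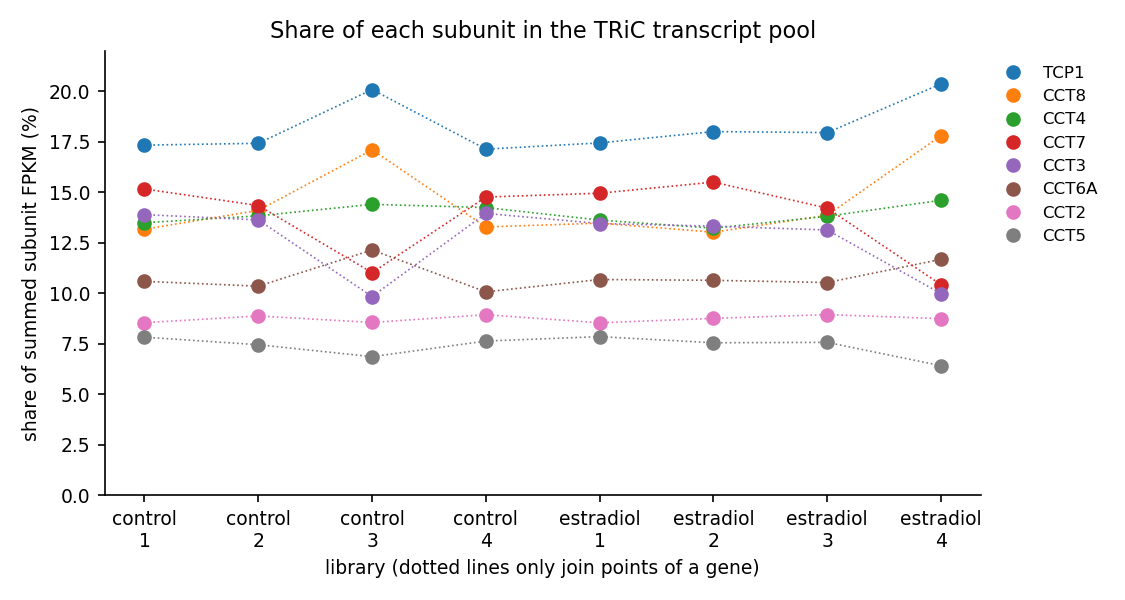
Share of each subunit in the summed FPKM of the 8 subunits, in percent, by library, with dotted lines that only join the points of a gene. The shares run nearly level across 6 libraries, while in control replicate 3 and estradiol replicate 4 CCT8 reaches 17.1% and 17.8% and CCT7 stands at 11.02% and 10.4%.

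The same 2 libraries moved the subunits in opposite directions, and similarly in both. Relative to the mean of the other 6 libraries, CCT8 was higher by 0.43 in control replicate 3 and 0.55 in estradiol replicate 4 on the log2(FPKM + 1) scale, CCT6A by 0.30 and 0.31, TCP1 by 0.28 and 0.37, and CCT4 by 0.16 and 0.25. CCT3 differed by -0.37 and -0.28, CCT7 by -0.33 and -0.35 and CCT5 by -0.066 and -0.097. Of the 8 subunits, 4 were above all 6 other libraries in both, as were 34.6% of tested genes, and 3 were below all 6 in both, as were 43.9% of tested genes. Moving out of the range of the other libraries was thus common to most genes. CCT2 was within the range of the 6 in control replicate 3.

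Base composition moved with these differences. Across 10250 tested genes with a reference transcript, a gene's deviation in a library was related to the GC content of its transcript, with a Spearman correlation of -0.886 for control replicate 3 and -0.867 for estradiol replicate 4, and between -0.623 and 0.427 in the other 6 libraries. These genes share a library and are not independent replicates. Over the 8 subunits, the deviation and the transcript's GC content had a Pearson correlation of -0.90 for control replicate 3 and -0.88 for estradiol replicate 4 (n = 8 subunits, which share the library and its depth), given as a description. With GC content at the last codon position in its place, the Pearson correlations were -0.89 and -0.93. The 2 GC-rich transcripts, CCT3 and CCT7, were the 2 lowest. A smooth trend of deviation on GC over all genes passed through -0.22 at CCT3 and CCT7 in both libraries, and through 0.20 and 0.22 at CCT8, less than the difference measured for CCT8. CCT5 lay on the other side of 0 from its trend: the trend gave 0.12 and 0.14, and the measured values were below 0. CCT2, CCT3 and CCT7 also lay below their trend in both libraries, but on the same side of 0.

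**Figure D4:**
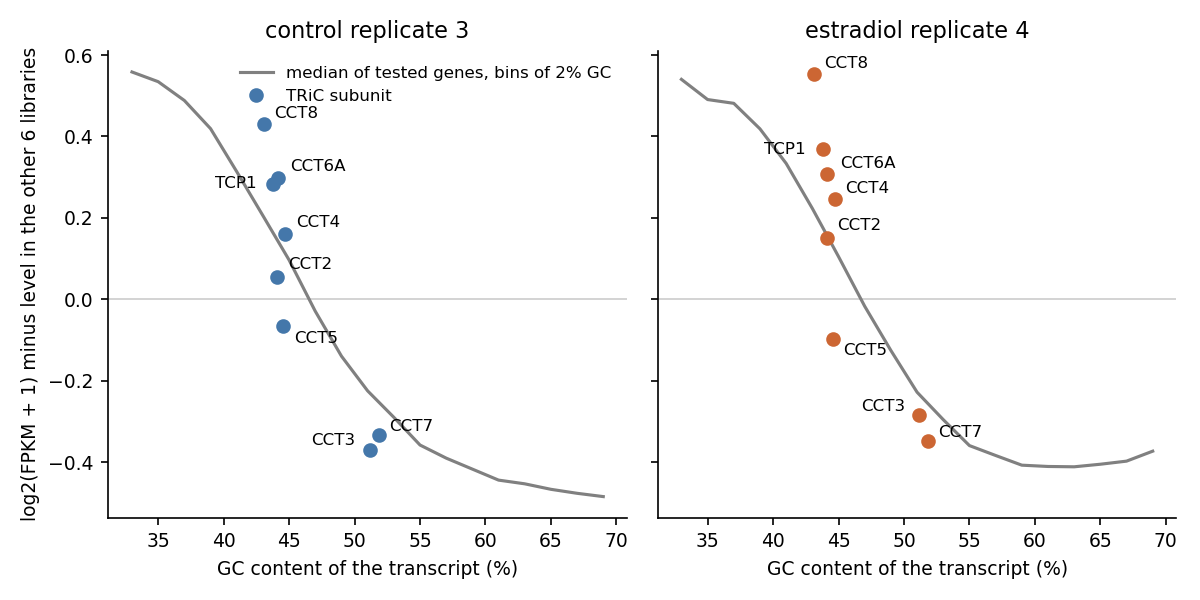
Log2(FPKM + 1) of each subunit in control replicate 3 and in estradiol replicate 4, minus its level in the other 6 libraries, against the GC content of its transcript in percent, with the median of tested genes in bins of 2% GC as a grey line. CCT3 and CCT7, at 51.2% and 51.8% GC, lie lowest, and CCT8 lies 0.43 and 0.55 above 0. CCT5, CCT3, CCT7 and CCT2 lie below the grey line in both panels, CCT2 only narrowly in estradiol replicate 4.

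With the GC trend removed from every library, the SD of log2 values over 8 libraries went from 0.24 to 0.14 for CCT8, from 0.16 to 0.066 for CCT7, from 0.15 to 0.054 for CCT3, and from 0.16 to 0.084 for TCP1. For CCT5 it went the other way, from 0.049 to 0.10. The remaining deviations in control replicate 3 and estradiol replicate 4 were 0.23 and 0.33 for CCT8 and -0.18 and -0.23 for CCT5. Both genes were beyond their SD among the 6 libraries, 0.066 and 0.035, taken before the trend was removed. TCP1 (0.121 and 0.185), CCT6A (0.126 and 0.114), CCT3 (-0.145 and -0.061) and CCT7 (-0.11 and -0.126) were also beyond theirs in both libraries. CCT2 was beyond its SD only in control replicate 3 and CCT4 only in estradiol replicate 4. The part of base composition in these differences was not tested beyond this removal.

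The comparison of estradiol with control cells addresses the aim of the series, the action of estradiol on endothelial cells under palmitic acid. The subunits' group means differed little: 153.5 ± 18.7 FPKM in control and 163 ± 19.7 with estradiol for TCP1 (SD, n = 4 each), 123 ± 21.3 and 129 ± 26.4 for CCT8, and 92.0 ± 11.7 and 96.2 ± 9.36 for CCT6A. For CCT4 they were 119 ± 8.56 and 122 ± 11.01, for CCT7 117 ± 11.9 and 121 ± 15.3, and for CCT3 109 ± 13.5 and 109.5 ± 10.2. CCT2 had 74.3 ± 3.47 and 77.2 ± 4.21, and CCT5 63.2 ± 1.24 and 64.6 ± 2.90. Every difference in means was smaller than 1 SD of its estradiol libraries, and control and estradiol values overlapped for all 8 subunits. Beside the SD of the control libraries, the difference was larger for CCT5, with an SD of 1.24, and smaller for the other subunits. Summed over the complex, the subunits came to 851 ± 37.8 FPKM in control and 882 ± 42.3 FPKM with estradiol. In bulk RNA, fewer cells of a kind and less RNA per cell cannot be told apart.

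None of the 8 subunits passed the test, and neither did any other gene. In limma on log2(FPKM + 1), with Benjamini-Hochberg adjustment over 10720 genes, 0 genes (0.0%) had an adjusted p under 0.05. A total of 26 (0.243%) had an unadjusted p under 0.05, and limma-voom on the recovered reads also called 0, with 22 at that unadjusted level. The differences, estradiol minus control, were between 0.014 (CCT3) and 0.087 (TCP1), with standard errors from 0.076 (CCT5) to 0.16 (CCT8) and an adjusted p of 0.999989 for each subunit. The 95% intervals before adjustment ran from -0.17 to 0.35 for TCP1, from -0.29 to 0.41 for CCT8, from -0.25 to 0.27 for CCT3 and from -0.14 to 0.20 for CCT5, so differences of those sizes in either direction could not be told from 0. In all 8 subunits the estradiol mean was the higher one, as in 49.5% of tested genes, and the median difference was 0.047 for the subunits against -0.00047 for all tested genes. Both values are small beside the subunits' median standard error of 0.11, and subunits of 1 library share its composition and are not independent. The count was 6 of 8 without control replicate 1, control replicate 3, estradiol replicate 2 or estradiol replicate 4.

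Without control replicate 3 and estradiol replicate 4 the standard errors were smaller, with a median of 0.045 for the subunits. The differences were 0.088 (standard error 0.044) for TCP1, 0.086 (0.040) for CCT6A, 0.059 (0.045) for CCT7, 0.050 (0.042) for CCT5, 0.040 (0.052) for CCT2, 0.040 (0.055) for CCT8, 0.015 (0.052) for CCT4 and -0.0093 (0.042) for CCT3. The limma adjusted p was between 0.9916 and 0.9953 for the 8 subunits, 0 genes (0.0%) passed, and 416 (3.88%) had an unadjusted p under 0.05. TCP1, at 144 ± 3.25 FPKM in 3 control and 153 ± 4.23 FPKM in 3 estradiol libraries, and CCT6A, at 86.2 ± 0.86 and 91.5 ± 0.63 FPKM, did not overlap between groups. The same held for 4.6% of tested genes in that direction. The estradiol mean was above the control mean for 7 of 8 subunits and for 48.1% of tested genes.

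With all 8 libraries and a batch term for the 2 that stood apart, limma gave TCP1 the same difference of 0.087 with a standard error of 0.036 and an unadjusted p of 0.0379. In that fit 1.85% of tested genes had an unadjusted p under 0.05 and a positive difference. The limma adjusted p of TCP1 was 0.999956. No source used here names a batch for these 2 libraries. They were picked from these same data, which can by itself lower the standard errors in this fit and in the fit without them. Between the 2 libraries themselves, estradiol replicate 4 was above control replicate 3 in 6 of 8 subunits, as it was for 54.3% of tested genes, with ratios from 0.978 (CCT5) to 1.09 (CCT8).

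**Figure D5:**
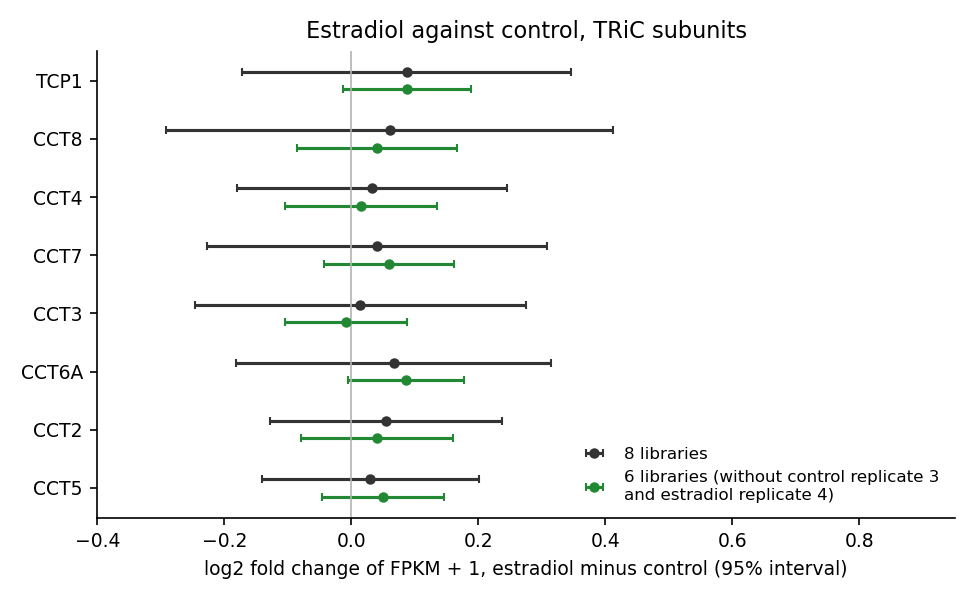
Difference in log2(FPKM + 1), estradiol minus control, for each subunit with its 95% interval before adjustment, from limma on all 8 libraries and on the 6 without control replicate 3 and estradiol replicate 4. All intervals cross 0 in both fits, and those from 6 libraries are narrower.

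Neighbouring genes limit what can be said of some subunits, because no source used here gives the strand setting of the read counting. By RefSeq on GRCh38.p14, TCP1 shares 615 bases with ACAT2 (16.5 FPKM) and holds the small nucleolar RNAs SNORA20 and SNORA29. CCT4 shares 1610 bases with the long noncoding RNA LOC124907773, for which no level was matched, and 281 bases with COMMD1 (5.62 FPKM). CCT3 shares 979 bases with TSACC (0.080 FPKM), and CCT6A holds SNORA22B and SNORA15. How many of the reads given to a subunit came from these genes was not tested.

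Over the 8 libraries, the subunits did not follow a single profile. The centred log2 profiles of TCP1 and CCT6A were the closest pair, with a root mean square distance of 0.030, followed by CCT3 and CCT7 (0.049) and CCT2 and CCT4 (0.050). The most distant were CCT7 and CCT8 (0.37) and CCT3 and CCT8 (0.36). Without the 2 libraries that stood apart, every pair lay between 0.025 and 0.081, so the wide range of distances was seen only with those libraries included. The mean profile of the 8 subunits was most like those of CREB3L2 (0.014), CRK (0.017), CHP1 (0.020), TPM4 (0.022) and EMP1 (0.022) among 4947 other genes with a mean of at least 10 FPKM. Of the subunits, CCT2 was the nearest to that mean, at 0.028, and CCT7 (0.19), CCT8 (0.18) and CCT3 (0.18) were the farthest. A gene close to the mean profile is therefore not close to every subunit.

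The genes that work with TRiC were examined as lists, and 0 members of any list passed limma's adjusted threshold. Their counts of positive differences, which carry no test, are to be read beside 49.5% positive over all tested genes, or 48.1% with the 2 libraries that stood apart left out. Of the prefoldin genes, 6 of 6 were tested and 5 had a positive difference, with a median of 0.034 (5 and 0.068 in the 6 libraries). PFDN4 was at 15.9 ± 6.52 FPKM in control and 17.01 ± 4.75 with estradiol (SD, n = 4 each), and PFDN2 at 90.6 ± 9.48 and 94.4 ± 16.2. Among the prefoldin-like genes, which form a related complex, 3 of 4 were tested and 1 was positive (median -0.012), whereas in the 6 libraries 3 were positive (median 0.053). ASDURF was listed at 0. UXT was at 41.0 ± 3.77 and 41.0 ± 7.26 FPKM, and PDRG1 at 16.2 ± 2.74 and 17.4 ± 2.32. Of the phosducin-like cofactors, which bind TRiC and help it with G protein beta subunits and tubulin, 3 of 4 were tested and 2 were positive (median 0.026, and 0.048 with 2 positive in the 6 libraries). PDCL was at 14.6 ± 0.37 and 14.9 ± 1.44 FPKM and TXNDC9 at 27.4 ± 8.30 and 28.1 ± 7.94, while PDCL2 had 0 to 4 reads in a library. The cofactors thus lay at lower levels than the subunits, PFDN5 and PFDN2 excepted.

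The client lists gather genes of proteins known to be folded by TRiC and relatives of such genes. Whether TRiC folds the protein of every member was not checked here. Of the actins and actin-related genes 8 of 8 were tested and 4 were positive (median 0.0034). In the 6 libraries 4 were positive and the median had the other sign, -0.018. ACTG1, cytoplasmic gamma actin, was at 667 ± 84.8 FPKM in control and 632 ± 49.4 with estradiol, and ACTL6A, an actin-related chromatin protein, at 24.2 ± 3.29 and 25.7 ± 4.25. Of the tubulins 11 of 13 were tested and 3 were positive (median -0.020, and -0.029 with 4 positive in the 6 libraries), with TUBB at 190.2 ± 19.0 and 178 ± 14.5 FPKM and TUBG1, gamma tubulin of the centrosome, at 18.4 ± 2.39 and 19.7 ± 2.34. Tubulin genes are close copies of each other, so reads may have been split between them. Of the tubulin cofactors, which take over tubulin after TRiC, 7 of 7 were tested and 4 were positive (median 0.019), and in the 6 libraries 3 were positive and the median turned to -0.037. ARL2 was at 40.2 ± 7.01 and 36.0 ± 6.91 FPKM and TBCE at 5.71 ± 0.62 and 6.11 ± 0.44. Of 15 other clients, such as G protein beta subunits and CDC20, all were tested and 7 were positive (median -0.0028, and -0.010 with 7 positive in the 6 libraries), with GNB3 at 2.19 ± 0.61 and 2.40 ± 0.51 FPKM and CCNE1, cyclin E1, at 1.27 ± 0.36 and 1.17 ± 0.10. All of these group differences over 8 libraries were smaller than 1 SD of their control libraries. Beside the SD of the estradiol libraries, the difference was larger for CCNE1, with an SD of 0.10, and smaller for the other genes named.

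The cytosolic heat shock genes, which code for the chaperones that act beside TRiC and for their regulator HSF1, had 15 of 16 positive differences and a median of 0.096, and 14 of 16 positive with a median of 0.094 in the 6 libraries. Over all tested genes 49.5% were positive, and 48.1% in the 6 libraries. DNAJB1, a co-chaperone of HSP70, was at 131, 132, 112 and 132 FPKM in control and 151, 164, 154 and 126 FPKM with estradiol. HSPA1B, an inducible HSP70, was at 307, 286.5, 234 and 307 FPKM in control and 348, 371, 332 and 282 FPKM with estradiol. For both genes the lowest value of each group was in a library that stood apart, and in the 6 other libraries the groups did not overlap, as for 4.6% of tested genes in that direction. Both genes were taken for the smallest p of their list. Some other members also did not overlap between groups in the 6 libraries, and some did. The limma difference was 0.23 (standard error 0.10) for DNAJB1 and 0.23 (0.12) for HSPA1B, each with an adjusted p of 0.999989, so neither passed. In the 6 libraries the differences were 0.25 and 0.22, and again 0 genes passed. HSPA1B is nearly identical to HSPA1A, and reads may have been split between them.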

How the data were processed

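RNA-seq of 8 TeloHAEC samples, 4 control and 4 estradiol, all with palmitic acid, was used; groups and replicate numbers came from the sample titles. The values are FPKM, deposited by the authors as 1 table with a row for each gene symbol, and all 8 library columns were used. Per the submitters' processing notes, fastp 0.20.1 and HTSeq were used; aligner, genome build, annotation and strand setting go unnamed in the sources used here. All 152348 values above 0 (100.0%) could be rebuilt from whole reads within a relative tolerance of 1e-06, which gave each gene's length and the depth of each library.

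Two-sided tests were made on log2(FPKM + 1) with limma 3.58.1 (R 4.3.3, trended prior variance), and p-values were adjusted by Benjamini-Hochberg over all 10720 genes whose mean FPKM reached 1. The pseudocount of 1 understates the change of low genes. A count model was used only as an alternative. GC content came from GENCODE v29 transcripts matched by symbol (95.6% of tested genes), and a lowess trend was used for its removal. Neighbouring genes came from RefSeq. No promoter or protein sequence was used. Steps outside R used Python 3.11.15, pandas 2.3.3, scipy 1.17.1 and statsmodels 0.14.6. The read recovery and the limma step were tested on simulated data. There limma recovered 10% of 1.25-fold, 66% of 1.5-fold, 80% of 2-fold and 100% of 3-fold changes, with 7 false calls. The simulated noise was drawn separately for each gene, without the shift that the libraries that stood apart share.

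The text names all 8 subunits and, of other lists, up to 4 members that passed or, failing that, the 2 lowest in unadjusted p; members of the chaperonin, prefoldin and phosducin-like lists may all be named, as may the 5 genes with the most similar profile. HSF1, CDC20, PECAM1 and CDH5 are named only as examples. The subunits and all lists were chosen with earlier results of these data known. Alternatives were another pseudocount, other filters and scalings, array weights, a replicate block, a batch term, limma-voom, other gene lengths, removal of the GC trend, and each library left out in turn.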

Additional observations from a re-analysis of the deposited data

Results flagged for a closer look

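In 4 of the 16 sets of 4 libraries (8 subunits in 2 groups), 1 library lay so far from the rest that its gap to the nearest, divided by the whole range, was above Dixon's 95% critical value for 4 samples. Chance would give this in about 5% of sets, and the 16 sets are not independent because they share libraries. TCP1 was at 181 FPKM in control replicate 3, with a gap of 0.848 of the range. CCT6A was at 109.5 FPKM in control replicate 3 (0.931) and at 110.2 FPKM in estradiol replicate 4 (0.941). CCT3 was at 94.2 FPKM in estradiol replicate 4 (0.954), below the other 3 estradiol libraries. All of these values came from the libraries that stood apart in the report.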

How the results depend on the processing

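Every alternative called 0 genes, the lowest adjusted p over all of them being 0.0809 with no filter on low values. TCP1, CCT2, CCT5 and CCT6A kept a positive sign in all 21 alternatives, but their size hung on single libraries. TCP1 was 0.0059 without estradiol replicate 4 and 0.17 without control replicate 3, and CCT6A 8.11e-05 and 0.15. CCT2 ranged from 0.021 to 0.080 and CCT5 from 0.012 to 0.060 with 1 library left out. CCT3 was reversed with array weights (-0.0085) and in the 6 libraries (-0.0093), and CCT8 with array weights (-0.0070). With 1 library left out, the difference ranged from -0.079 to 0.084 for CCT3, from -0.027 to 0.075 for CCT4, from -0.036 to 0.13 for CCT7 and from -0.073 to 0.17 for CCT8, and reversed in part of each range. The cause of these reversals was not tested, and each of the reversed values is smaller than its standard error. The deviations of same-numbered libraries from their group means had correlations of 0.616, 0.073, -0.478 and -0.737 for numbers 1 to 4. These values cannot tell if the replicate numbers pair the libraries. The libraries that stood apart carry different numbers, and each pulls the mean of its group. With the replicate block 0 genes were called, 11 had an unadjusted p under 0.05, 8 of 8 subunits were positive, and the subunits' differences were those of the fit without it, such as 0.087 for TCP1. The SD of log2 levels among subunits went from 0.44 to 0.37 with the coding length, an alternative chosen after seeing the data, as was removal of the GC trend. Counting error at the lowest depth, such as 1.23% for CCT3 and 1.13% for CCT6A, compares with coefficients of variation of 10.2% and 10.7% over 8 libraries, but of 1.68% and 3.37% over the 6.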

Other observations

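The other chaperonin genes lay far below the TRiC subunits, except for those of the mitochondrial chaperonin. CCT6B, the relative of CCT6A, was at 0.25 to 0.68 FPKM with 22 to 57 reads in a library, and CCT8L2, a relative of CCT8, was listed at 0 in all 8 libraries. MKKS, BBS10 and BBS12, chaperonin-like proteins needed to assemble a complex of the cilium, had means of 7.03, 4.26 and 3.48 FPKM. Of these 5 genes, 3 reached the filter and 0 passed limma's adjusted threshold, with a median difference of 0.0050 (0.032 in the 6 libraries). HSPD1, the chaperonin of mitochondria, was at 273 ± 40.9 FPKM in control and 298.5 ± 41.1 FPKM in estradiol libraries (SD, n = 4 each), and HSPE1, its lid, at 47.6 ± 26.2 and 49.9 ± 9.01 FPKM. The limma difference of HSPE1 was 0.18 over 8 libraries and 0.39 over the 6 without control replicate 3 and estradiol replicate 4, and that of HSPD1 0.13 and 0.14. In HSPE1 control replicate 3, at 86.8 FPKM, exceeded every other library, the next being estradiol replicate 4 at 62.8 FPKM.

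Of the 14 genes of the 20S proteasome core, all were tested, 0 passed and 7 had a positive difference, with a median of 0.0044 (9 and 0.0098 in the 6 libraries). PSMA4 was at 36.5 ± 8.21 and 38.5 ± 6.38 FPKM and PSMA5 at 33.7 ± 2.72 and 34.8 ± 2.38 FPKM in control and estradiol libraries. Among the 10 endothelial markers 1 had a positive difference and 0 passed, with a median of -0.037 (2 and -0.040 in the 6 libraries). CLEC14A was at 51.3 ± 5.55 FPKM in control and 45.1 ± 3.09 FPKM in estradiol libraries and KDR at 31.1 ± 1.42 and 29.96 ± 1.46 FPKM.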
